A study of Mus musculus with 6 samples.

Results

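The clustered protocadherins are neighbouring cadherin genes on mouse chromosome 18, and their promoter methylation was followed here while fibroblasts were turned into neurons. Members were chosen by symbol, as every gene on that chromosome whose name begins with Pcdha, Pcdhb, Pcdhga, Pcdhgb or Pcdhgc and ends in a digit. This gave 58 of the 26216 genes of the RefSeq annotation, 14 in the alpha, 22 in the beta and 22 in the gamma cluster. Of these, 37 members had a region in at least 1 promoter table, 16 had a peak in at least 1 library, and 17 appeared in neither kind of file. The symbols alone decide which genes are members.

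Clustered protocadherins are adhesion proteins of the neuronal surface. Alpha and gamma genes each begin with a large variable exon of their own, which carries its own promoter and encodes the extracellular cadherin repeats, and this exon is spliced to constant exons that the cluster shares. Beta genes consist of a single coding exon. Individual neurons use different small sets of these promoters, which gives each cell its own surface identity. The promoter that is used tends to be unmethylated and bound by CTCF, the insulator protein that loops it to a distant enhancer. The C-type genes Pcdhac1, Pcdhac2, Pcdhgc3, Pcdhgc4 and Pcdhgc5 lie at the ends of their clusters and are regulated differently from the other members.

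Methylated DNA was captured with an antibody and sequenced (MeDIP-seq) in 6 libraries of ICR mouse cells, each given as 3-5 passages. The groups were neurons induced from fibroblasts at 1, 3, 5 and 7 dpi (the labels' name for the time, not spelled out there), hippocampal primary neurons of 1-day-old pups as positive control, and embryonic fibroblasts (MEF) from day E13.5 as negative control. How the induced cells were converted is not given in the sources used here, and neither is the number of animals behind a library. Each group is 1 library, so no difference below has a replicate check, and a single MEF library is shared by all 5 comparisons.

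The promoter tables list regions at most 2 kb from a transcription start site that the authors called higher or lower than MEF. Each gives the reads of both libraries over the region. A gene with no listed region has no value there, so absence from a table does not show equal methylation. The tables ranged from 516 to 6173 regions and were unequal in length, which is why each count of members is set against the share of all genes in the same table. In bulk DNA, a change in the share of cells that carry methylation and a change of its density in each cell cannot be told apart. The members resemble each other in sequence, and the handling of reads that match several places is not given in the sources used here, so reads may have been placed on the wrong paralog.

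The promoters of cell type markers were counted in the same tables. In the order 1, 3, 5 and 7 dpi, then primary neurons, 1.77, 5.23, 3.85, 12.4 and 20.4% of all genes were listed higher. In that order 10.6, 13.2, 10.7, 8.87 and 15.3% were listed lower. The marker lists are short, so their counts are not read as results. Of 8 neuron markers, Rbfox3, Snap25 and Mapt were listed lower everywhere except at 5 dpi, where Snap25 and Mapt were. Tubb3, Map2 and Dcx were listed higher at 7 dpi. Of 8 fibroblast markers, Dcn was listed lower in all 5 comparisons and Thy1 in all but 7 dpi, and other stretches were listed higher for Dcn at 7 dpi and for both genes in primary neurons. Postn at 7 dpi and Col1a1 in primary neurons were listed higher. Markers of other brain cells were listed higher in primary neurons for 1 of 4 astrocyte (Aldh1l1), 2 of 4 oligodendrocyte (Mbp, Olig2) and 2 of 3 microglia genes (Aif1, Csf1r), with other stretches of Mbp and Csf1r listed lower. In the induced libraries Aldh1l1 was listed higher and Mbp and Csf1r lower at 3 dpi, and Gfap higher at 7 dpi. The part of such cells in the counts below was not tested. DNA reads hold no transcript level, so the cell types named in the labels could not be checked in this way.

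At 1 dpi, 14 of 58 members were listed higher than MEF (24.1%), in a table that lists 1.77% of all genes. The alpha cluster took the largest part, with 8 of 14 genes (57.1%), against 3 of 22 beta and 3 of 22 gamma genes (13.6% each). With a deposited p of at most 1e-05 there were 5 alpha, 3 beta and 2 gamma genes, beside 0.717% of all genes. On the lower side stood 9 members (15.5%), 1 alpha, 4 beta and 4 gamma, where 10.6% of all genes were listed. The share listed higher stood well above that of all genes, and the share listed lower stood nearer to it.

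At 3 dpi the higher table held 4 members (6.90%), 2 alpha, 2 beta and no gamma gene, beside 5.23% of all genes. The lower table held 9 (15.5%), 5 beta and 4 gamma genes and no alpha gene, beside 13.2% of all genes. Both shares lay near the background.

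At 5 dpi the members listed higher numbered 12 (20.7%), with 4 alpha, 5 beta and 3 gamma genes, beside 3.85% of all genes. Those listed lower numbered 9 (15.5%), with 1 alpha, 5 beta and 3 gamma genes, beside 10.7% of all genes. At 7 dpi 14 members were listed higher (24.1%), 3 alpha, 5 beta and 6 gamma, beside 12.4% of all genes. The 9 members listed lower at 7 dpi (15.5%) were 3 alpha, 4 beta and 2 gamma genes, beside 8.87% of all genes.

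In primary neurons 24 members were listed higher (41.4%), beside 20.4% of all genes. They were 7 of 14 alpha (50%), 8 of 22 beta (36.4%) and 9 of 22 gamma genes (40.9%). A further count of 14 members listed lower (24.1%), 3 alpha, 6 beta and 5 gamma, stood beside 15.3% of all genes. All 5 comparisons share the MEF library, so they are given side by side and their resemblance is not a result. With a deposited p of at most 1e-05, the members listed higher numbered 10 at 1 dpi (17.2%, beside 0.717% of all genes) and 2 at 3 dpi (3.45%, beside 1.1%). By the same limit the comparison of 5 dpi kept 5 (8.62%, beside 1.43%), that of 7 dpi 5 (8.62%, beside 4.4%) and that of primary neurons 12 (20.7%, beside 9.33%). The members listed lower then numbered 2 at 1 dpi (3.45%, beside 2.17%), 2 at 3 dpi (3.45%, beside 3.39%) and 1 at 5 dpi (1.72%, beside 2.31%). At 7 dpi they numbered 4 (6.9%, beside 2.44%), and in primary neurons 9 (15.5%, beside 5.95%).

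**Figure D1:**
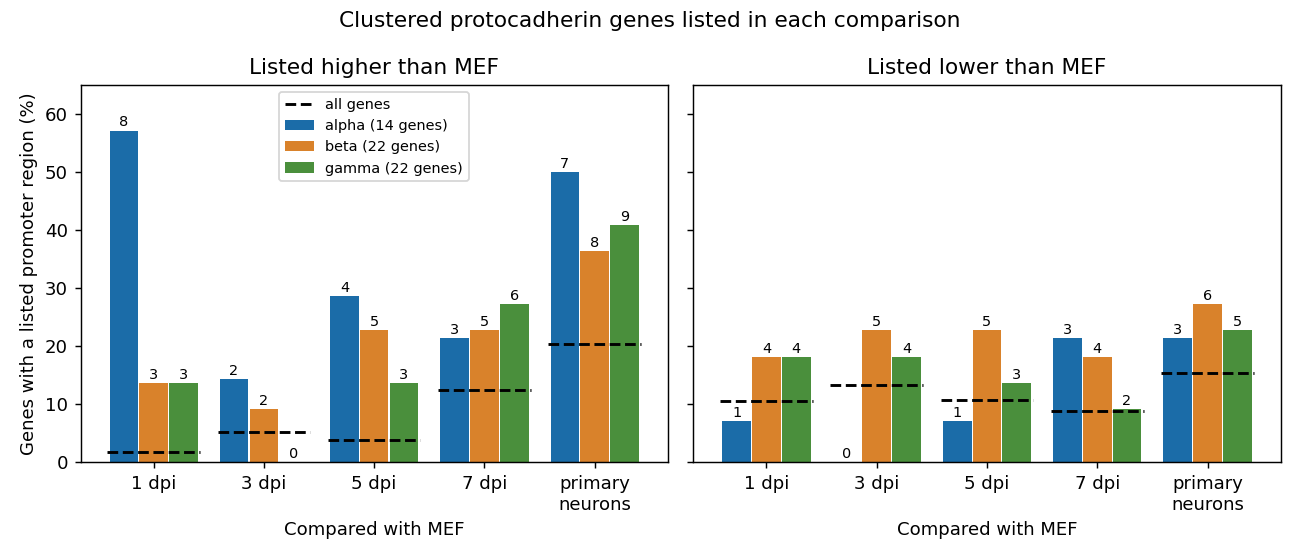
Percent of alpha, beta and gamma protocadherin genes with a promoter region listed higher (left) or lower (right) than MEF in each of 5 comparisons, 1 library per group. Numbers over the bars are genes, and the dashed line is the share of all 26216 genes listed. The alpha bar at 1 dpi (8 of 14 genes) stands farthest above its line.

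The higher regions gathered well inside the genes rather than at the start site. At 1 dpi the middles of all 14 higher regions lay between 1 and 2 kb downstream of the start site, where 33.7% of all higher regions in that table lay. At 5 dpi 15 of 16 did, against 32.0% of all regions, and at 7 dpi 9 of 15 did, against 29.4%. In primary neurons 15 of 33 did, against 28.4%, and the rest were spread from 1679 bp upstream to 1 kb downstream. The table of 3 dpi was different, with 1 of 4 regions there, against 28.8%. With only regions that reach within 1 kb of the start site, 0 members were listed higher at 1 dpi, beside 0.969% of all genes. By the same limit 2 were at 3 dpi (3.45%, beside 2.73%) and 1 at 5 dpi (1.72%, beside 2.1%). The comparison of 7 dpi kept 6 (10.3%, beside 6.67%) and that of primary neurons 10 (17.2%, beside 11.7%). On the lower side 6 remained at 1 dpi (10.3%, beside 5.57%) and 4 at 3 dpi (6.9%, beside 7.21%). At 5 dpi 6 remained (10.3%, beside 5.85%), at 7 dpi 4 (6.9%, beside 4.82%), and in primary neurons 8 (13.8%, beside 8.46%).

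Over the 5 comparisons 54 of 82 higher regions lay in that window (65.9%, against 29.3% of all higher regions). The pools of higher and of lower regions count a stretch once for each comparison that lists it, all against the 1 MEF library. Their regions are therefore not independent. For example, a higher stretch of Pcdha7 counts 4 times and a lower stretch of Pcdhb15 counts 5 times. By cluster, 25 of 31 alpha, 17 of 24 beta and 12 of 27 gamma higher regions lay in that window. The 55 lower regions did not gather there, with 13 in the window (23.6%, against 29.1%). Their median position was 187 bp upstream, and that of the higher regions was 1330 bp downstream. Because beta genes have a single exon, their regions can be placed with the RefSeq gene bounds alone. Of the 24 higher beta regions 18 lay wholly inside the gene and 5 wholly upstream of it, and of the 27 lower ones 13 lay inside and 10 upstream.

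**Figure D2:**
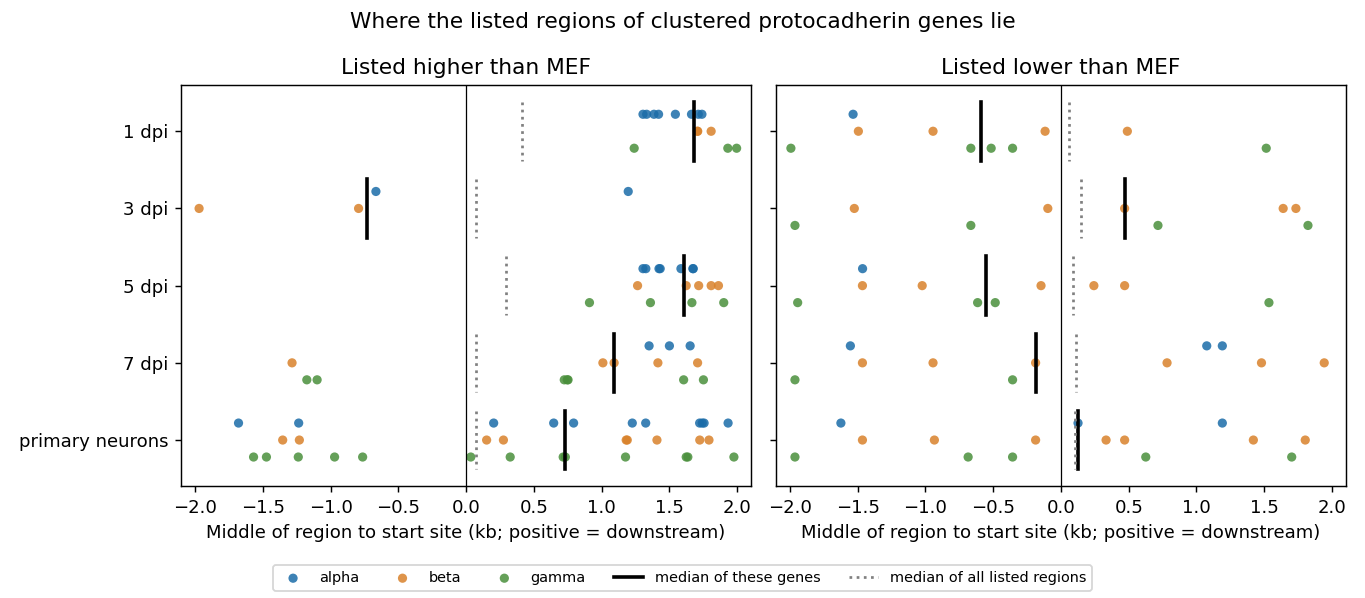
Distance in kb from the start site to the middle of each listed region, for regions higher (left) and lower (right) than MEF, coloured by cluster, with black bars for the median of these genes and dotted bars for the median of all listed regions. At 1 dpi every higher region lies beyond 1 kb downstream, while lower regions spread over both sides of the start site.

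Reads behind single regions were few, and the other library mostly had none. Among the 82 higher regions MEF had 0 reads in 71 and at most 11 in the rest. Among the 55 lower regions the induced or primary neurons had 0 reads in 48 and at most 2 in the rest. The fewest reads that entered a table were 10 against 0, for Pcdhb17 at 7 dpi. Other values just inside the threshold were 11 against 0, such as Pcdha10 at 1 dpi and Pcdhb4 at 5 dpi. The fewest were 12 in the higher table of primary neurons and 13 in the lower table of 7 dpi.

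**Figure D3:**
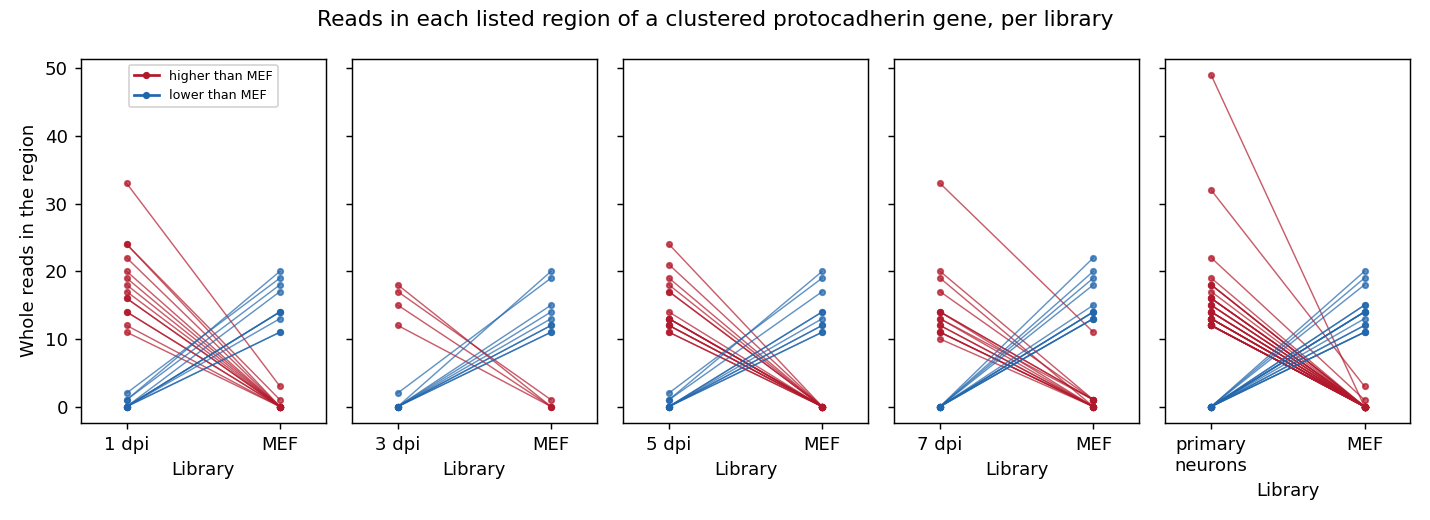
Whole reads in each listed region of a clustered protocadherin gene, with the induced or primary neuron library on the left of each panel joined to MEF on the right. Red lines are regions higher than MEF and blue lines regions lower; most lines end at 0, and the steepest red line is Pcdha7 in primary neurons, with 49 reads against 0.

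In the alpha cluster, Pcdha7 was the member listed higher most often, in every comparison except that of 7 dpi. About 1.2 to 1.4 kb inside the gene the libraries of 1, 3 and 5 dpi had 12, 15 and 21 reads and primary neurons had 19, against 0 in MEF each time. A second stretch farther in, chr18:36975461-36975900 (mm10), had 49 reads in primary neurons against 0 in MEF. That is at least 15.2-fold higher with MEF set to a floor of 3 reads, and the authors' deposited table gives it a q of 3.33e-11. At 5 dpi a stretch overlapping it had 17 reads against 0.

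Pcdha6 had the most reads of any member at 1 dpi, 33 against 3 in MEF over chr18:36969101-36969500, which was 11-fold higher (95% counting interval 3.45 to 56.1). Other stretches of Pcdha6, both upstream, were listed at 3 dpi with 17 reads against 1 and in primary neurons with 15 against 0. Its listing in 3 comparisons therefore rests on 3 separate places.

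Pcdha1, the first gene of the cluster, was listed higher in 3 comparisons. Within chr18:36931461-36931760 it had 18 reads at 1 dpi and 24 at 5 dpi, both against 0 in MEF, and 32 in primary neurons against 3. The value for primary neurons was 9.95-fold (interval 3.11 to 50.8). At 5 dpi the adjoining stretch downstream, chr18:36931761-36931980, was listed higher as well, with 12 reads against 0. At 7 dpi the adjoining 200 bases upstream of it were listed lower instead, with 0 reads against 14 in MEF.

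Pcdha3 and Pcdha11 were listed higher at the same times as Pcdha1, all against 0 reads in MEF. Pcdha3 had 22 reads at 1 dpi, 13 in each of its regions of 5 dpi, and 13 in primary neurons. Pcdha11 had 17 reads at 1 dpi, 13 in the library of 5 dpi and 15 in primary neurons. Pcdha8 was listed higher about 1.7 kb inside the gene at 1 dpi (16 reads), at 7 dpi (12) and in primary neurons (16), against 0 in MEF, and primary neurons held 2 more higher regions nearer its start.

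At 7 dpi the alpha gene with most reads was Pcdha5, with 20 against 1 in MEF, 26.7-fold on the authors' scaled values (interval 4.27 to 1105). Pcdha10 followed with 13 reads against 1 (17.3-fold, interval 2.60 to 737).

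Lower alpha regions were few and rested on the 1 MEF library each time. Pcdha2 had 0 reads in every comparison but that of 3 dpi, against 14 in MEF, about 1.5 kb upstream of its start. Pcdha12 had 0 reads at 7 dpi and in primary neurons against 15 in MEF. These were the only alpha members listed lower and never higher.

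In the beta cluster, Pcdhb7 and Pcdhb20 were listed higher in 4 of 5 comparisons each. Pcdhb7 had 24 reads at 1 dpi against 1 in MEF, 17 at 5 dpi against 0, 17 at 7 dpi against 1, and 16 in primary neurons against 0, with all middles 1.4 to 1.8 kb inside the gene. Pcdhb20 had 20 reads at 1 dpi and 18 at 5 dpi about 1.7 kb inside, and 18 at 3 dpi and 13 in primary neurons upstream of its start, all against 0 in MEF. So the place was shared for Pcdhb7 up to neighbouring stretches, and moved across the start site for Pcdhb20.

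Pcdhb4, Pcdhb11 and Pcdhb17 were listed higher in 3 comparisons each, with 10 to 19 reads against 0 in MEF. Pcdhb11 reached 19 at 7 dpi and Pcdhb17 reached 19 at 1 dpi. Pcdhb4 had 11 reads in each of the libraries of 5 and 7 dpi, and 14 in primary neurons, at places 1266 bp downstream, 1284 bp upstream and 276 bp downstream of its start. Pcdhb12 was listed at 3 dpi alone, with 12 reads against 0.

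Pcdhb15 and Pcdhb19 were listed lower in all 5 comparisons. For Pcdhb15, about 1.5 kb upstream, the libraries of 1, 3 and 5 dpi had 2 reads each and those of 7 dpi and primary neurons 0, against 19 MEF reads in overlapping windows. At 1 dpi that is 9.5-fold lower (interval 2.29 to 84.1). For Pcdhb19, at its start site, all 5 libraries had 0 reads against 13 MEF reads in overlapping windows, and farther inside the gene it was also listed lower at 7 dpi and in primary neurons. Since the reads of 1 MEF library stand in every comparison, the 5 listings are not 5 independent observations.

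Pcdhb9 was listed lower everywhere but at 3 dpi, with 1 read at 1 dpi and 0 in the others, against 14 to 18 in MEF. Pcdhb17 was listed lower everywhere but at 7 dpi, with 0 reads against 11 in MEF, about 0.5 kb inside the gene. Pcdhb8 had 0 reads in its 3 comparisons (3 dpi, 7 dpi, primary neurons) against 14 to 22 in MEF.

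In the gamma cluster, Pcdhgb2 was listed higher about 1.8 to 1.9 kb inside the gene at 1, 5 and 7 dpi. It had 24 reads at 1 dpi and 12 at 5 dpi against 0 in MEF. At 7 dpi a longer window, chr18:37691421-37691800, held 33 reads against 11 in MEF, 4.0-fold on the scaled values (interval 1.97 to 8.77). It was not listed in primary neurons.

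Pcdhga12 was listed higher at the same times, with 16 reads at 1 dpi, regions of 14 and 13 reads at 5 dpi and 14 reads at 7 dpi, all against 0 in MEF, the last of these upstream of its start. Pcdhga1 and Pcdhga9 each had 14 reads at 7 dpi against 1 in MEF. In primary neurons the gamma members with most reads were Pcdhga7, with 22 against 1 (20.5-fold, interval 3.32 to 847), and Pcdhga6, with 17 against 0, both more than 1.4 kb upstream of their starts. At 5 dpi Pcdhga7 had 12 reads against 0 inside the gene, and primary neurons had 12 against 0 at that place as well.

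Pcdhgb6 was listed lower in all 5 comparisons, close to 2 kb upstream of its start. It had 1 read at 1 dpi and at 5 dpi and 0 in the other libraries, against 20 MEF reads in overlapping windows. Pcdhga8 was listed lower upstream of its start everywhere but at 7 dpi, with 0 reads against 12 to 14 in MEF, and at 1 and 5 dpi also inside the gene, with 0 against 11. Pcdhga10 had 0 reads against 14 in MEF in its 3 comparisons, those of 1 dpi, 7 dpi and primary neurons. Pcdhga9 had 0 reads at 1 dpi and 1 at 5 dpi against 17 in MEF.

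No C-type member had a listed promoter region in any comparison. The other members without one were 1 alpha, 9 beta and 6 gamma genes, among them Pcdhgb8, which RefSeq annotates as a pseudogene. The alpha gene is Pcdha4. Regions inside it were listed higher at 1 dpi and in primary neurons, but were assigned to a fused transcript that begins there. Pcdha4 therefore counts as not listed by that assignment. Having no listed region was common, as only 33.6% of all genes were listed higher at least once and 17.6% lower. The absence of the C-type members is therefore not read as a trait of theirs. Over the 5 comparisons 32 members were listed higher at least once (55.2%, beside 33.6% of all genes) and 16 lower at least once (27.6%, beside 17.6%). Both directions occurred in 11 (19%, beside 7.67%). In at least 3 of 5 comparisons, 13 members were listed higher (22.4%, beside 1.8%) and 9 lower (15.5%, beside 12.7%), all against the 1 MEF library.

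**Figure D4:**
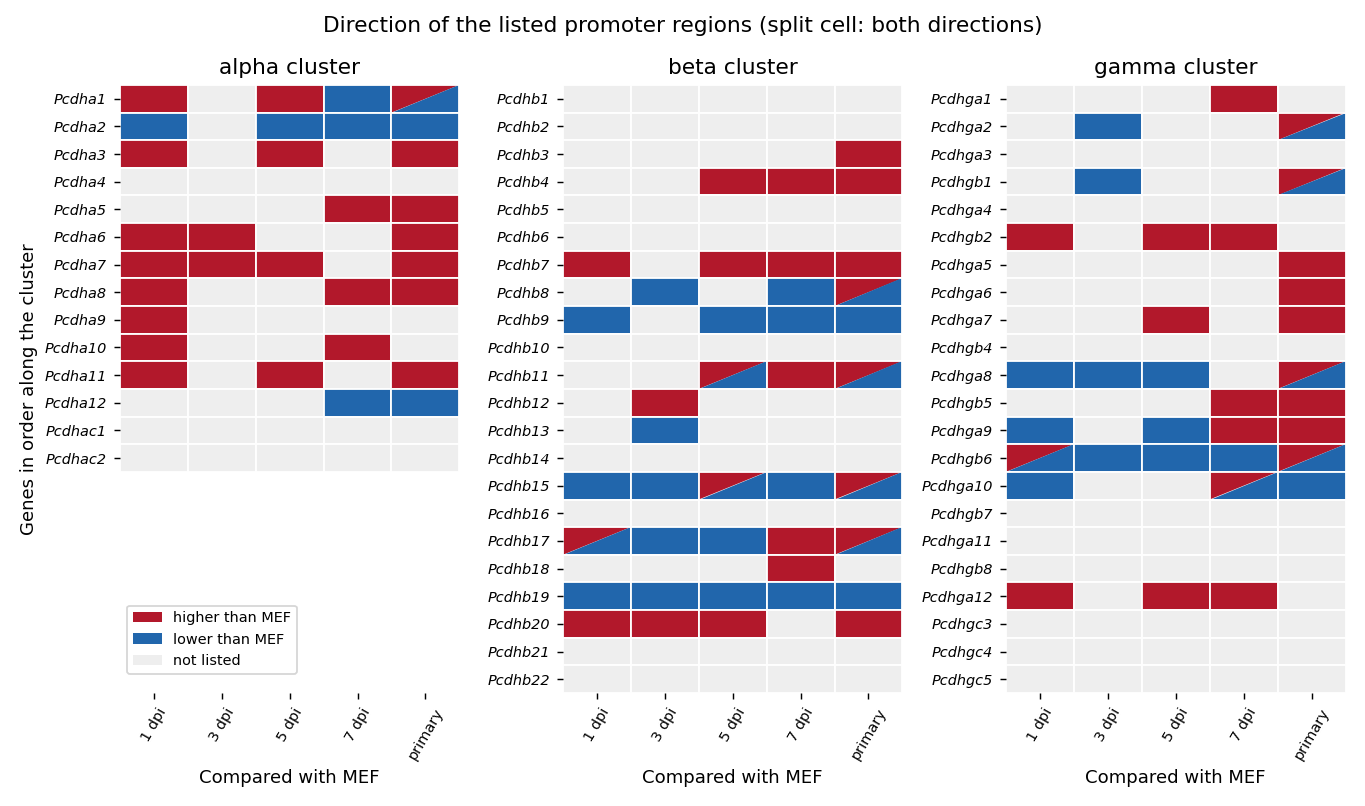
Every member in its order along the alpha, beta and gamma clusters, with a red cell where a region was listed higher than MEF, a blue cell where it was listed lower and a split cell where both occurred. Rows of Pcdhb15, Pcdhb19 and Pcdhgb6 carry blue in all 5 columns, while the 3 dpi column of the alpha cluster is nearly empty.

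Some members were listed in both directions in a single comparison. They numbered 2 at 1 dpi, where 0.233% of all genes were, and 0 at 3 dpi, where 0.999% were. The comparison of 5 dpi had 2 such members beside 0.477%, that of 7 dpi 1 beside 1.42%, and that of primary neurons 9 beside 3.87%. The 14 cases came from 10 members, as some recurred against the same MEF library. In 10 of the 14 cases the higher region lay downstream of the lower one. This order was not counted over all genes. Among all member regions pooled over the comparisons, repeated stretches included, 65.9% of higher ones lay 1 to 2 kb downstream, against 23.6% of lower ones. Pcdhb17 at 1 dpi had 19 reads against 0 in MEF at 1710 bp downstream and 0 against 11 at 490 bp downstream. Pcdhgb6 at 1 dpi had 14 against 0 at 1997 bp downstream and 1 against 20 at 1993 bp upstream. Both genes thus had a higher and a lower stretch within the same promoter window. Each stretch rests on 11 to 20 reads in the higher of its libraries, with 1 library per group. A gain or loss of methylation was not tested. For Pcdhga8, described below, MEF had 11 reads and 0 reads in windows that overlap in part, so a count of 0 is read with care.

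At 5 dpi Pcdhb15 had 19 reads against 0 in MEF inside the gene, beside its lower region upstream. Pcdhb11 had 11 against 0 inside the gene at 5 dpi and 0 against 12 nearer its start. At 7 dpi Pcdhga10 had 13 against 0 at 753 bp downstream and 0 against 14 at 357 bp upstream. These cases follow the same order, with the higher stretch downstream.

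The primary neurons had this order in Pcdha1, Pcdhb11, Pcdhb15, Pcdhga8 and Pcdhgb6, with 12 to 32 reads in the higher region against 0 to 3 in MEF. In Pcdhb17, Pcdhb8, Pcdhga2 and Pcdhgb1 the order was the opposite, with 12 to 18 reads against 0 in the higher region and 0 against 11 to 14 in the lower one.

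Peaks were called by the authors in each library on its own, with no reference to MEF. Members with an assigned peak numbered 3 at 1 dpi, beside 5.97% of all genes, and 1 at 3 dpi, beside 4.5%. The library of 5 dpi had 5 beside 11.1%, that of 7 dpi 10 beside 29.2%, primary neurons 4 beside 16.8%, and MEF 0 beside 6.9%. As shares of the 58 members these were 5.17, 1.72, 8.62, 17.2, 6.9 and 0%, none above that of all genes. The lists differ in length, from 1447 peaks at 3 dpi to 14091 at 7 dpi.

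Peaks that the authors class as promoter peaks were rarer. Members with one numbered 2 at 1 dpi, beside 0.24% of all genes, and 0 at 3 dpi, beside 0.107%. The library of 5 dpi had 4 beside 0.462%, that of 7 dpi 4 beside 1.73%, primary neurons 1 beside 0.622%, and MEF 0 beside 0.195%. Here the members' shares were above those of all genes in 4 libraries, each time on few genes. They were 3.45% at 1 dpi (2 genes), 6.9% at each of 5 and 7 dpi (4 genes each), and 1.72% in primary neurons (1 gene). The share that rests on 1 gene is not read as an excess. There were 11 promoter peaks among the 27 member peaks, and each summit lay 1399 to 1712 bp downstream of the start site. Of all genes' promoter peaks, 13.8 to 31.0% had summits at least 1 kb downstream, depending on the library.

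By the authors' fold enrichment the highest member peak was that of Pcdha6 at 1 dpi (7.94), Pcdhb22 at 3 dpi (7.89) and Pcdhb4 at 5 dpi (7.40), and it was that of Pcdha8 at 7 dpi (10.7) and of Pcdha7 in primary neurons (9.19). These scores describe a peak within its own library and are not compared between libraries. The Pcdha6, Pcdhb4 and Pcdha7 peaks are promoter peaks, and those of Pcdhb22 and Pcdha8 were classed as intergenic.

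Pcdhb22, the last beta gene, had an intergenic peak about 3.4 kb downstream of its start in 3 libraries (1 dpi, 3 dpi, primary neurons), and a distant one at 7 dpi. Pcdhb8 had an intergenic peak about 9 kb downstream of its start in 3 libraries (5 dpi, 7 dpi, primary neurons). Among C-type members, Pcdhac1 had 1 intergenic peak, in primary neurons, and Pcdhac2 had 3 at 7 dpi, the nearest 15034 bp upstream of its start. Pcdhgc3, Pcdhgc4 and Pcdhgc5 had none in any library.

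**Figure D5:**
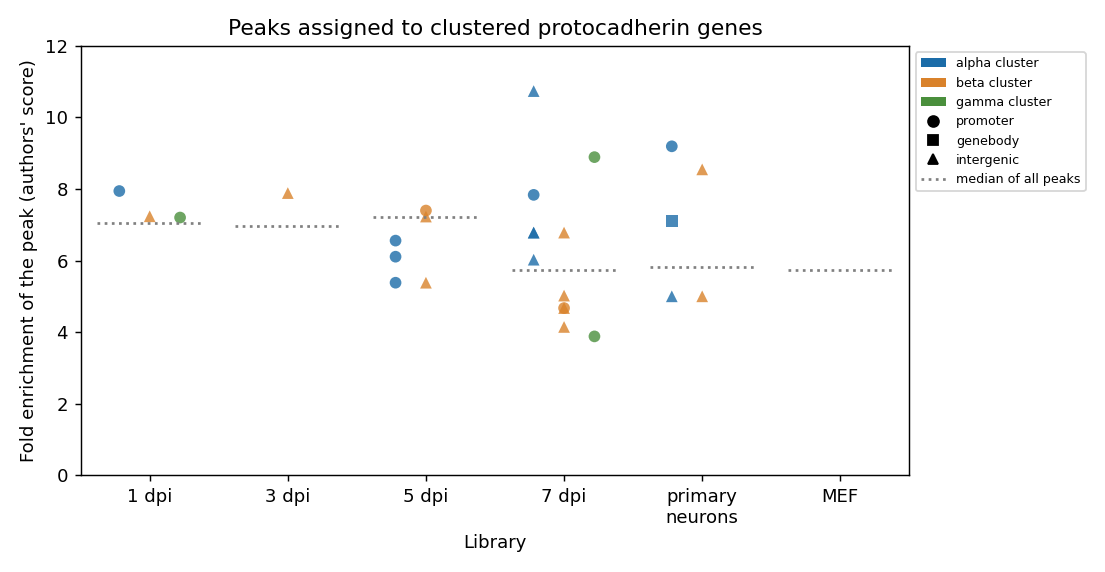
Fold enrichment of each peak assigned to a clustered protocadherin gene, as the authors score it, by library, with colours for the cluster, shapes for the authors' class and a dotted line for the median of all peaks in that library. The MEF column holds no member peak, and the highest point is Pcdha8 at 7 dpi.

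Regions listed higher met a peak of the same library in 1 of 14 cases at 1 dpi, beside 14.0% of all regions, and in 0 of 4 at 3 dpi, beside 1.74%. They did so in 4 of 16 cases at 5 dpi beside 11.7%, in 4 of 15 at 7 dpi beside 12.5%, and in 2 of 33 in primary neurons beside 2.58%. The members were Pcdha6 at 1 dpi, Pcdha1 and Pcdha7 at 5 dpi, Pcdha5, Pcdhb7, Pcdhga1 and Pcdhgb2 at 7 dpi, and Pcdha7 in primary neurons. No lower region met a MEF peak, as MEF had no member peak at all. Of the lower regions of all genes, 0.919 to 1.86% met one, depending on the comparison. Most listed member regions lay outside the authors' peaks.

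Pcdhgb1 showed a promoter peak at 1 dpi, with its summit 1633 bp downstream. Regions that overlap part of this peak were listed lower at 3 dpi and in primary neurons, with 0 reads against 12 in MEF each time. They overlap the 525 bp of the peak by 234 and 200 bp. Pcdhgb1 was in neither table at 1 dpi.

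Other protocadherins and genes that act on the clusters were counted as well. Of all genes, 12.7% were listed lower and 1.8% higher in at least 3 of 5 comparisons. The shares of all genes in each comparison stand beside the members' counts above. Of 12 non-clustered protocadherins, which stand alone in the genome, Pcdh18 was listed lower in every comparison but that of 3 dpi, with 0 reads against 14 in MEF. Pcdh9 was listed higher at 7 dpi (10 and 11 reads) and in primary neurons (15), against 0. Pcdh20 was listed higher at 3 dpi, and the other 9 were not listed.

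Of 12 regulators and partners, Dnmt1, the maintenance DNA methyltransferase, was listed lower in all 5 comparisons, with 0 reads against 11 to 15 in MEF, and at 7 dpi also had a higher region of 10 reads against 0. Stag1 and Nipbl, a subunit and the loader of cohesin, and Dnmt3b, a methyltransferase that acts on these promoters, were listed higher in primary neurons. Ctcf, Rad21, Smc1a, Smc3, Stag2, Wapl, Smchd1 and Setdb1 were in no table.

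There were 39 neighbouring genes within 500 kb of the clusters. In the order 1, 3, 5 and 7 dpi, then primary neurons, 1, 5, 2, 3 and 8 of these were listed higher and 4, 6, 5, 4 and 6 lower. The shares of all genes in the same order were 1.77, 5.23, 3.85, 12.4 and 20.4% higher. On the lower side they were 10.6, 13.2, 10.7, 8.87 and 15.3%. The 1 higher neighbour at 1 dpi is a fused transcript that begins at Pcdha4, and it is also among the 8 in primary neurons. Its regions lie inside Pcdha4, so it is not a gene apart from the clusters. Slc4a9 and Ankhd1 were listed lower in all 5 comparisons, with 12 to 19 and 11 to 28 MEF reads.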

How the data were processed

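The members, lists and rules for naming genes were chosen with earlier results of these data known. CASAVA, Bowtie2 2.1.0 and the build mm10 come from the submitters' processing notes. Not given in the sources used here are the peak caller, the region test, its thresholds and the treatment of duplicate or multiply mapped reads. The authors deposited whole read counts per promoter region for 1, 3 and 5 dpi. For 7 dpi and primary neurons they deposited a scaled signal, in which 1 read equals 1.15 units (7 dpi) or 0.966 units (primary neurons), with 0.866 and 1.04 units for MEF in the same tables. After division, 100% of values up to 20 reads were whole within 0.1 read.

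The deposited tables also carry the authors' p-values, q-values and log2 ratios. Their p-values differ by a median of 0.0588% from a G-test of the 2 values. The deposited peak lists give the authors' fold enrichment, −log10 q and summit tag counts.

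Counts of members used the authors' listings. Folds are scaled ratios with exact Clopper-Pearson 95% intervals. Against 0 reads a fold is a bound with a floor of 3 reads. Both cover counting error only, since PCR copies of a molecule cannot be recognised. The code was tested on simulated data. Overlaps need 1 bp (bedtools 2.31.1), with Python 3.11.15 and pandas 2.3.3. Start sites in the files and in RefSeq (GRCm38.p6) were the same for 29 of 41 members and at most 291 bp apart. Library totals and CpG content were not analysed here.

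Members named with values are all C-type members, the 2 with most reads in each comparison, direction and cluster (ties aside), those listed the same way in at least 3 comparisons, those listed both ways in 1, and those with a peak in at least 3 libraries or the highest fold in a library.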

Additional observations from a re-analysis of the deposited data

Results flagged for a closer look

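Pcdhga8 was listed in opposite directions in windows that overlap in part. Primary neurons had 12 reads over chr18:37727181-37727480, against 0 in MEF. At 1 dpi and 5 dpi, windows that overlap it by 140 and 160 bp had 0 reads, against 11 in MEF. The window of 5 dpi has 40 bp outside the overlap. The MEF library therefore counts 11 reads in this window and 0 in another that covers most of it. The difference between primary neurons and the induced neurons was not tested, and how reads were assigned to windows is not given in the sources used here.

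Pcdhb8 was listed higher in primary neurons, with 12 reads against 0 in MEF, and lower at 7 dpi, with 0 reads against 22, in windows that overlap by 40 bp. Primary neurons were also listed lower in that stretch, with 0 reads against 14 in a window that overlaps the higher one by the same 40 bp, so both libraries had 0 reads there. The difference between them was not tested.

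The fused transcript Pcdha4-g, whose name ends in no digit and which is therefore no member, begins at Pcdha4, a member that itself had no listed region. It was listed higher at 1 dpi with 11 reads and in primary neurons with 38 reads, against 0 in MEF, at 1440 and 1630 bp downstream of its start.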

How the results depend on the processing

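No paired analysis was possible because each group has 1 library, and no library could be left out. A deposited p of at most 1e-05 left 2 members lower at 1 dpi; 2 higher and 2 lower at 3 dpi; 5 higher and 1 lower at 5 dpi; 5 higher and 4 lower at 7 dpi; and 12 higher and 9 lower in primary neurons. Keeping regions that reach within 1 kb of the start site left 0 higher at 1 dpi, 2 higher and 4 lower at 3 dpi, 1 higher at 5 dpi, 6 higher and 4 lower at 7 dpi, and 10 higher and 8 lower in primary neurons. For both limits the shares of all genes are given with the counts above, and some of the members' shares lie near or below them. At least 13 reads in the higher library left 5 lower at 3 dpi, 9 higher at 7 dpi and 9 lower in primary neurons. The share of all genes under this last limit was not counted. The other totals under these settings stayed within 1.5 times. So did all 10 under regions of 1 member alone and distinct regions. Unscaled reads could change only the totals of 7 dpi and primary neurons, as the others were whole reads already. Under them the members listed higher at 7 dpi fell from 14 to 10, and the other totals of these comparisons did not change. The share of all genes with unscaled reads was not counted.

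Promoter peaks alone left 0 members at 3 dpi, 4 at 7 dpi, and 1 in the primary library. A −log10 q of at least 10 and a fold of at least 5 each left 6 at 7 dpi. The 1447 highest peaks of each library left 0 at 5 dpi and 2 each at 7 dpi and in primary neurons. Apart from promoter peaks, whose shares of all genes are given above, those shares were not counted under these peak limits. The falls are therefore not read as a trait of the members. Requiring 50% overlap left 1 of 33 higher regions with a peak in primary neurons, beside 2.37% of all regions. In the pool of 5 comparisons, repeats included, the share of higher regions 1 to 2 kb downstream was 73.7% with the stricter p. It was 66.7% with at least 13 reads and 63.4% where the whole region had to lie there. These alternatives were chosen after seeing the data. Windows of 10 to 49 reads and tables without unlisted promoters limit what depth can show.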
